A study of Mus musculus with 10 samples.

Results

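The genes described here encode the subunits, activators, inhibitor and assembly factors of the proteasome in cultured mouse fat cells. They are the protein-coding genes whose mouse symbol starts with Psma, Psmb, Psmc, Psmd, Psme, Psmf or Psmg, without Psmb8 and Psmb9. The symbol rule gave 48 genes, all of them among the 28987 genes listed for each library, and 45 of the 48 reached 1 TPM in at least 2 of the 10 libraries and were tested among 14166 such genes. TPM gives a gene's share of the transcripts in a library after correction for transcript length, so levels can be compared between genes. The rule takes in Psmc3ip by its symbol, although its product acts in meiotic recombination and is no proteasome protein.

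RNA was sequenced from cells of digested inguinal white fat of male C57BL/6 mice, 6 to 8 weeks old, which were grown to confluence and labelled primary white adipocytes. Each group has 2 libraries and was treated for 24 h with saline, with the recombinant TNF-family ligands BAFF or APRIL at 500 ng/ml, with bacterial lipopolysaccharide (LPS) at 100 ng/ml, or with norepinephrine at 1 mM. The labels name no genetic change in any group. Nothing in them tells if the 2 libraries of a treatment are separate mice or cultures, so the p-values measure the spread between these samples, which may be technical.

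The proteasome degrades proteins that carry ubiquitin chains. Its barrel, the 20S core, stacks rings of alpha subunits (Psma) on rings of beta subunits (Psmb), and 3 beta subunits, Psmb5, Psmb6 and Psmb7, cut proteins. The 19S cap binds the chains, removes them and feeds the protein in, with a base of ATPases (Psmc) and other subunits and a lid (Psmd), and the cap and core together form the 26S proteasome. Inflammatory signals replace the cutting subunits with Psmb8, Psmb9 and Psmb10, which make the immunoproteasome, and add the PA28 cap of Psme1 and Psme2, both known for their part in making peptides for antigen presentation. In fat cells the transcription factor Nfe2l1 is a known regulator of proteasome genes.

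Each library summed to between 953553 and 964726 TPM, and with TPM alone the depth is unknown. Of the adipocyte markers, Adipoq and Fabp4 were at 100.3 TPM or more in every library, and Cidec and Retn at 49.9 TPM or more. Plin1 ran from 0.781 to 15.3 TPM, and Lep stayed under 1 TPM in all libraries. Col1a1, a fibroblast collagen, was at 1203 TPM or more. The 2 libraries labelled APRIL stood apart: across genes on the log2 scale they correlated with the other 8 at 0.850 to 0.886, against 0.948 to 0.991 among those 8. The sum of 4 Y-linked genes was 0.489 and 0.775 TPM in them, against a range of 93.8 to 123 TPM elsewhere, although every mouse is labelled male. They are called the libraries labelled APRIL below, and they share in the spread that every test uses. For comparisons that do not involve them, the number of genes of the symbol rule that passed is also given with them left out. Most adjusted p-values of single genes are given only with them in the fit. The same holds for all genes outside the symbol rule and for the shares of all tested genes.

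The 45 genes together took 0.432 to 0.577% of the listed transcripts. The 30 subunits of the constitutive 26S proteasome were abundant, with the assembly factors below them and Psme1 and Psme2 within their range. With saline these 30 had a median of 118 TPM, from 51.1 TPM for Psmd12, a lid subunit, to 463 TPM for Psmb4, a beta subunit that does not cut. The 20S subunits had a median of 133 TPM (14 genes) and the 19S subunits a median of 75.7 TPM (16 genes). Within the subcomplexes, saline levels ran from 110 (Psma5) to 342 TPM (Psma3) in the alpha ring, from 114 (Psmb2) to 463 TPM (Psmb4) in the beta ring, and from 59.4 (Psmc2) to 203 TPM (Psmc3) among the ATPases. Among the 3 base subunits that are not ATPases they ran from 56.7 (Psmd1) to 133 TPM (Psmd4), and in the lid from 51.1 (Psmd12) to 136 TPM (Psmd13). The cutting subunits Psmb5, Psmb6 and Psmb7 were close together at 122 ± 8.75, 129 ± 2.68 and 129.8 ± 12.4 TPM (SD, n = 2), and their order does not exceed this spread.

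**Figure D1:**
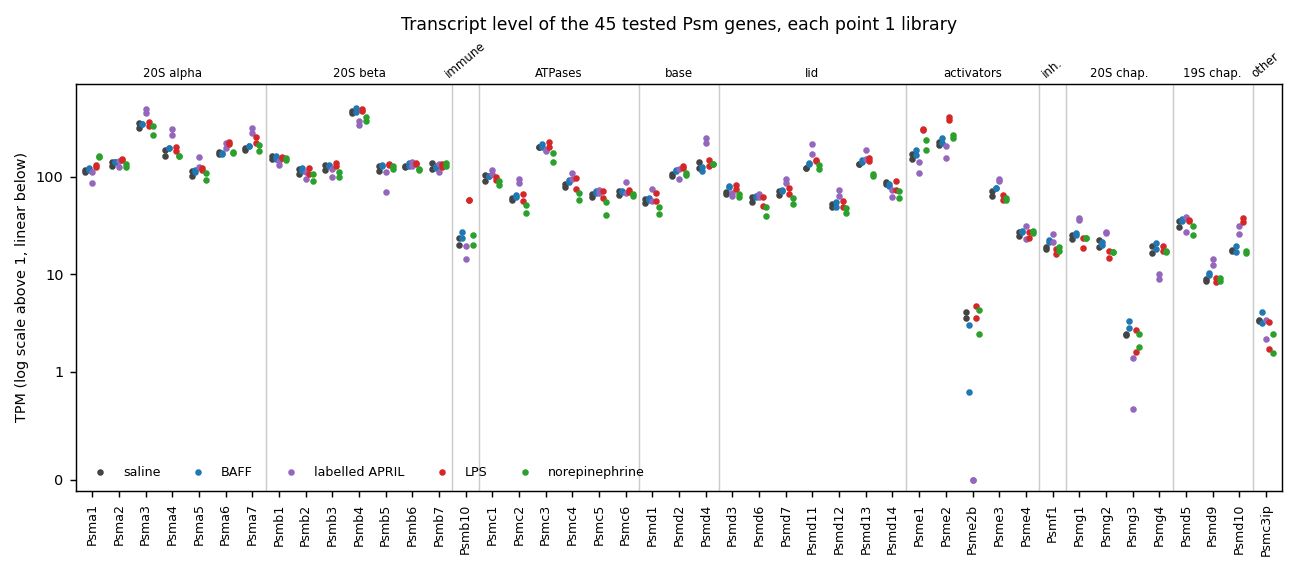
Level of each of the 45 tested genes in TPM (log scale above 1, linear below), grouped by subcomplex, 1 point for each library and 1 colour for each treatment. Ring, base and lid subunits lie between 40.0 and 511 TPM, with the assembly chaperones and Psmb10 below most of them and Psme1 and Psme2 among the higher genes.

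Assembly factors were listed far below the subunits they help to join. The 20S chaperones Psmg1 and Psmg2, which act as a pair on the alpha ring, were at 24.2 ± 1.87 and 20.8 ± 2.18 TPM with saline. The partners Psmg3 and Psmg4 were unequal, at 2.40 ± 0.0389 and 18.1 ± 2.31 TPM. The 19S chaperones Psmd5, Psmd9 and Psmd10, which hold ATPases until the base is built, were at 32.8 ± 3.06, 8.82 ± 0.276 and 17.7 ± 0.265 TPM. Psmf1, an inhibitor of the core, was at 18.7 ± 0.512 TPM. Among the activators, Psme3, a cap of nuclear proteasomes, and Psme4, the large PA200 cap, were at 67.9 ± 6.16 and 25.9 ± 1.88 TPM, below Psme1 and Psme2 at 164 ± 12.9 and 220.5 ± 8.35 TPM.

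The other 3 rule genes stayed under 1 TPM. Psma8 and Psmb11, the alpha and beta subunits known from testis and thymus, were at 0.348 TPM or less. The lid subunit Psmd8 was listed at 0 in 5 libraries and at most at 0.452 TPM, whereas the other 7 lid genes ran from 40.0 to 219 TPM. An exact 0 in such a table can be a failed estimate, and no level of Psmd8 is read from it. Some levels also depend on how reads were shared between near-identical transcripts. Psma3 has a processed pseudogene, Gm13835, that matches it at 100% over 665 aligned bases and was listed at 153 to 264 TPM, and Psme2 matches Psme2b at 99.4% over 794 bases. Those levels are therefore uncertain, and the tests were repeated with each pair summed. The rise of Psma3 in the libraries labelled APRIL against saline, given below, also passed in that repeat.

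LPS raised a small group, the PA28 and immune-type genes and 1 assembly chaperone, while no ring, base or lid subunit passed the test. Against saline, 4 of the 45 genes rose and 0 fell (limma, Benjamini-Hochberg adjusted over all 14166 genes at 0.05), where 2.87% of all tested genes rose and 0.932% fell. Each of the 4 had both LPS libraries above all 4 libraries of saline and BAFF. They differ in role: Psmb10 is a cutting subunit of the immunoproteasome, Psme1 and Psme2 form the PA28 cap, and Psmd10 (gankyrin) helps to assemble the 19S base.

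Psmb10 (ENSMUSG00000031897, chromosome 8, 105935735 to 105938444, GRCm38) was at 58.6 and 58.0 TPM with LPS. It was at 23.5 and 20.2 with saline, 27.1 and 23.4 with BAFF, 19.9 and 25.1 with norepinephrine, and 19.7 and 14.4 TPM in the libraries labelled APRIL. The LPS libraries lay far above every other library. Those of saline, BAFF and norepinephrine overlapped one another, and the libraries labelled APRIL were the lowest. On the log2(TPM + 1) scale, which understates changes of low genes, the difference from saline was 1.38 ± 0.18 (SE; 95% interval 0.97 to 1.79; limma adjusted p = 0.00642), with group means of 58.3 ± 0.388 and 21.8 ± 2.37 TPM (SD, n = 2). Psmb7, the constitutive subunit whose place Psmb10 takes, was at 130.5 ± 6.88 with LPS and 129.8 ± 12.4 TPM with saline (difference 0.01, adjusted p = 0.988). The ratio of Psmb10 to Psmb7 was thus 0.466 and 0.429 in the LPS libraries and 0.194 and 0.145 in the saline libraries. Psmb8, which lies outside the symbol rule and replaces Psmb5, rose with Psmb10 from 35.1 to 98.2 TPM (adjusted p = 0.00678), and Psmb9 is not analysed here.

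Psme1 (ENSMUSG00000022216, chromosome 14, 55578123 to 55581529) was at 312 and 302 TPM with LPS. With saline it was at 173 and 155, with BAFF at 189 and 168, with norepinephrine at 191 and 241, and in the libraries labelled APRIL at 142 and 109.7 TPM. Only norepinephrine replicate 2 came near the LPS libraries. The difference from saline was 0.90 ± 0.16 (limma adjusted p = 0.0246). Its partner Psme2 (ENSMUSG00000079197, chromosome 14, 55587441 to 55591113) lies further along the same chromosome, on the other strand. Psme2 was at 412 and 386 TPM with LPS against 215 and 226 with saline. Norepinephrine gave 249.9 and 268, BAFF 249.9 and 223, and the libraries labelled APRIL 209.6 and 157 TPM for Psme2. The groups did not overlap with LPS, and the difference from saline was 0.85 ± 0.14 (limma adjusted p = 0.0193). With Psme2b summed into it, the difference was 0.84 (adjusted p = 0.0211). The PA28 genes moved together: Psme1 per Psme2 was 0.759 and 0.781 with LPS and 0.806 and 0.684 with saline. The other caps did not pass: Psme3 differed by -0.14 and Psme4 by -0.02 (adjusted p = 0.594 and 0.974). Psme1 and Psme2 summed were 12.6 and 10.6 times Psme3 in the LPS libraries and 6.10 and 5.28 times in the saline libraries.

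Psmd10 (ENSMUSG00000031429, chromosome X, 140948429 to 140956728) was at 37.9 and 34.3 TPM with LPS and at 17.9 and 17.5 TPM with saline. Its levels were 19.7 and 17.0 with BAFF, 17.4 and 16.7 with norepinephrine and 25.9 and 31.1 TPM in the libraries labelled APRIL. LPS thus gave the highest libraries, those labelled APRIL the next, and the other libraries lay between 16.7 and 19.7 TPM. The difference of LPS from saline was 0.99 ± 0.12 (limma adjusted p = 0.00631). The other 19S chaperones differed little: Psmd5 was at 35.8 and 35.2 TPM with LPS against 30.6 and 34.9 with saline, and Psmd9 at 8.38 and 9.10 against 8.62 and 9.01 TPM (adjusted p = 0.829 and 0.982).

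**Figure D2:**
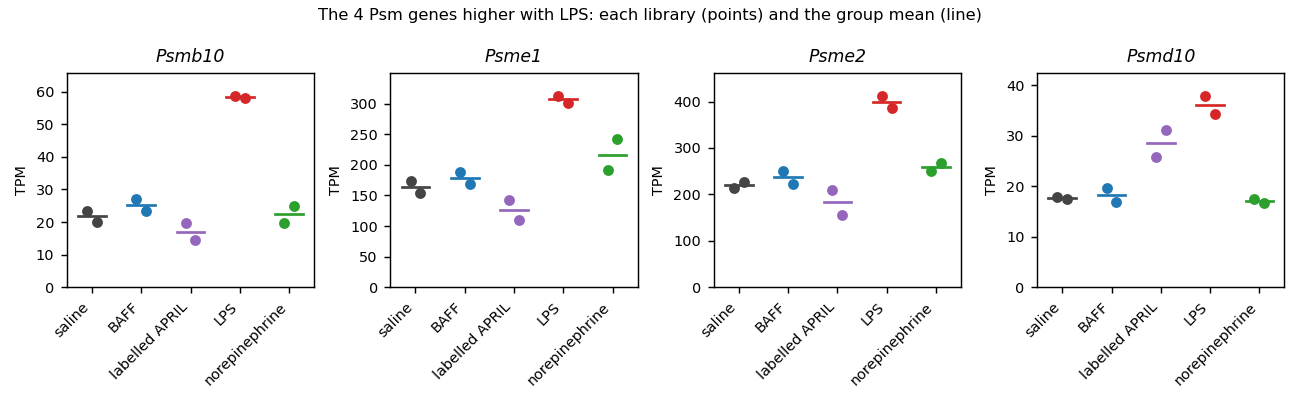
Psmb10, Psme1, Psme2 and Psmd10 in TPM by treatment, 1 point for each library and a line at the group mean. In each panel the LPS libraries are the highest of the 10, and Psmd10 is also raised in the libraries labelled APRIL.

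The 30 constitutive subunits lay slightly above saline with LPS, and none passed. At an unadjusted limma p of 0.05, 2 passed as higher and 0 as lower, where 1370 of the 14166 tested genes did so as higher and 964 as lower. The smallest adjusted p was 0.108, and both LPS libraries lay above both saline libraries for 13 of the 30 (18 of the 45 genes, where 24.2% of all tested genes did so). The median difference of the 30 was 0.08, against -0.01 over all tested genes, and 26 of them were positive. Psma6, an alpha subunit, was nearest to the threshold at 217 and 231 TPM with LPS and 171 and 181 with saline (difference 0.35 ± 0.10, adjusted p = 0.108). It passed at 0.0407 with the libraries scaled by median ratios and at 0.0400 with the libraries labelled APRIL left out, where 5 of the 45 genes passed. No constitutive subunit differed by more than 0.35, and the interval of each lay between -0.41 and 0.57. The 20S chaperones were on the lower side, with Psmg2 at 14.8 and 17.3 TPM against 19.2 and 22.3 (difference -0.35, adjusted p = 0.174). Psmf1, Psmg1, Psmg3 and Psmg4 also did not pass.

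Leaving out 1 library at a time kept the size of the 4 differences and lost most calls. Without LPS replicate 1, LPS replicate 2, saline replicate 1 or saline replicate 2, the number of genes that passed was 0, 2, 1 and 0. Psmb10 and Psmd10 passed without LPS replicate 2, and Psmb10 alone without saline replicate 1. Psme1 also missed the threshold without the filter on low values (adjusted p = 0.0525). Across all alternatives tried the differences ranged from 1.28 to 1.49 for Psmb10, 0.91 to 1.05 for Psmd10, 0.82 to 0.98 for Psme1 and 0.77 to 0.90 for Psme2. Markers of macrophages and leukocytes differ strongly within the groups, and their sum was higher in replicate 1 than in replicate 2 of each group. The main fit has no block on the replicate number, so it counts this difference as spread. Of the 10 genes in this list 7 were tested and 0 passed with LPS, while Ptprc and Cd3e were under 1 TPM in every library. The 10 summed to 1520 and 406 TPM with LPS and 1214 and 406 TPM with saline. Lyz2 made most of this sum, at 1192 and 304 against 1018 and 312 TPM. Of the 7 differences 5 were positive and 2 negative. Both LPS libraries lay above both saline libraries for 2 of the 7, where 24.2% of all tested genes did so. These were Itgam (62.9 and 20.7 against 16.0 and 4.79 TPM) and Fcgr1 (3.49 and 1.10 against 0.836 and 0.432 TPM). Psmb10 was at 58.6 and 58.0 TPM in these LPS libraries and at 23.5 and 20.2 TPM in the saline libraries. Of 4 tested fibroblast markers 3 rose with LPS (Dcn from 150.3 to 933 TPM), and the adipocyte markers summed to 4775 and 5245 TPM with LPS against 6857 and 7902 TPM with saline. None of the 3 tested endothelial markers passed. The part of these cells in the result was not tested, and in such bulk samples fewer cells of a type and less RNA per cell cannot be told apart.

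**Figure D3:**
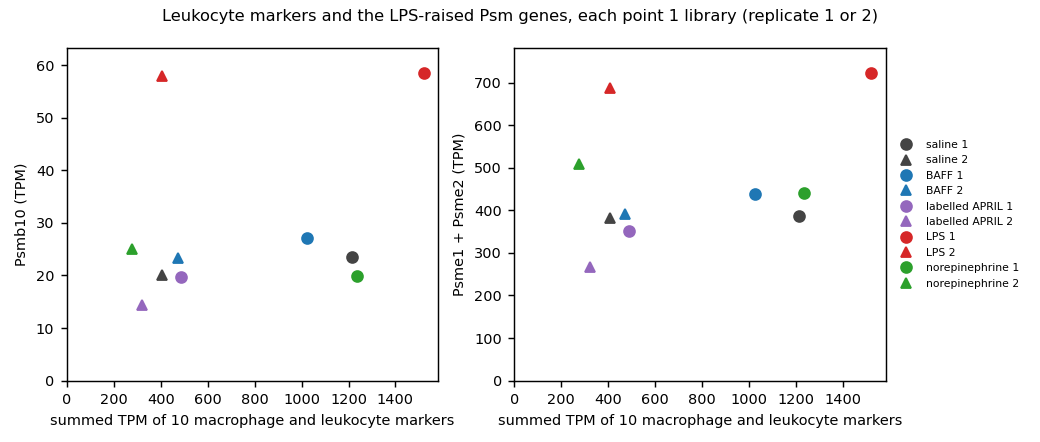
Level of Psmb10 (left) and the sum of Psme1 and Psme2 (right) in TPM against the summed TPM of 10 macrophage and leukocyte markers, 1 point for each library. LPS replicates 1 and 2 lie at marker sums of 1520 and 406 TPM and at 58.6 and 58.0 TPM of Psmb10.

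Among genes that work with the proteasome, a stress factor and an interferon-response factor rose with LPS, and no listed partner passed. Of 6 regulators of proteasome genes 1 rose: Nfe2l2, the oxidative stress factor, went from 53.7 to 86.2 TPM (difference 0.67 ± 0.09, limma adjusted p = 0.00700). Nfe2l1 was at 214 TPM with saline and 288 TPM with LPS and did not pass (adjusted p = 0.311). Irf1, an interferon-response factor known to drive immunoproteasome genes, rose from 25.9 to 62.9 TPM (1.25 ± 0.15, adjusted p = 0.00453). None of 9 partners outside the symbol rule passed, including the core maturation factor Pomp (126 and 144 TPM), the ubiquitin receptor Adrm1 (52.9 and 56.2 TPM) and the small lid subunit Sem1 (53.3 and 55.3 TPM). None of 8 shuttle factors and none of 9 genes of ubiquitin, its E1 enzymes and VCP passed on the adjusted p either. On the unadjusted limma p alone, taken at 0.05, 0 partners were higher and 1 lower, 0 shuttle factors differed, and 1 of the 9 ubiquitin genes was higher and 1 lower.

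The promoters of these genes were searched for the letters of 4 motifs, since 4 members moved together with LPS. A window of 300 bases, 250 before and 50 after the RefSeq start site (GRCm38.p6), was found for 38 of the 45 genes, and both strands were read. The interferon-response core (GAAA, any 2 bases, GAAA) stood in the windows of 5 of 38 genes (13.2%) and in 3.44% of all 32851 promoters. The antioxidant-response core TGACNNNGC stood in those of 6 genes (15.8%, against 12.4% of promoters). The gamma-activated site TTCNNNGAA stood in those of 2 (5.26%, against 8.30%), and the inverted CCAAT box ATTGG in those of 13 (34.2%, against 37.4%). These letters are a description and not a bound site. The shares of the 38 are counted by gene and those of the background by promoter. A gene with multiple windows, such as Psme2, has more chances of a match, so these shares are not directly comparable. The 5 matches to the interferon-response core are shown with 10 flanking bases on each side, 5′ to 3′ on the gene's strand, the match in capitals (TTTC first where it lies on the other strand):

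Psme1: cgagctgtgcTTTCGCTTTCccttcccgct

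Psmb3: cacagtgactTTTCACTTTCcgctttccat

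Psmd4: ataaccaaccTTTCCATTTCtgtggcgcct

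Psmd9: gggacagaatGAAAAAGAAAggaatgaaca

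Psmg4: gcgcgcatctGAAAGTGAAAgagcgttccg

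Of these 5, Psme1 rose with LPS. The other 4, Psmb3, Psmd4, Psmd9 and Psmg4, did not pass, with differences of 0.11, 0.06, -0.01 and 0.03. The windows of Psmb10 and Psme2 held none of the 4 motifs, and that of Psmd10 held CCAAT letters 3 times. The windows of Psme1 (chr14:55578244-55578543, plus strand) and Psmd10 (chrX:140956662-140956961, minus strand) are printed whole because these genes rose and hold a match, with the matches in capitals:

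Psme1: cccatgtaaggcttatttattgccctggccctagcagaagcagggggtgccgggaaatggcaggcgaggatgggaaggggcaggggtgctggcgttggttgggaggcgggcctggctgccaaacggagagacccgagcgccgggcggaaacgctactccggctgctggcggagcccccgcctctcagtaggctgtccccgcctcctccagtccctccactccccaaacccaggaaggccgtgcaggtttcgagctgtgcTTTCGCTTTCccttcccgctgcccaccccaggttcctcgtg

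Psmd10: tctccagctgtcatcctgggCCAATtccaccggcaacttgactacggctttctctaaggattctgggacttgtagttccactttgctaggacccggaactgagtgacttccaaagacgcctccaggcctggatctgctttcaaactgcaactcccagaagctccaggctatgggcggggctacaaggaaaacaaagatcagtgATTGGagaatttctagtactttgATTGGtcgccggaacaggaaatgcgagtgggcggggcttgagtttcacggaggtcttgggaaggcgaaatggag

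The match in Psme1 begins 10 bases into the RefSeq transcript, counting the start site as 1. The whole window lies inside the GENCODE span of Psme1 (55578123 to 55581529), so the 2 sources differ on where the gene starts. The position holds for the RefSeq start only. Those of Psmd10 begin 230, 47 and 24 bases before the start site. Antioxidant-response letters stood in the windows of Psmb5, Psmb6, Psmc6, Psmd12, Psmd9 and Psme4, and none of these genes passed with LPS.

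Norepinephrine, the transmitter of the sympathetic nerves that reach fat, gave lower values for many ATPases and lid subunits, but no gene passed. Of the 45 genes 0 rose and 0 fell, where 0.614% of all tested genes rose and 0.0847% fell (limma), while 2 passed upwards and 9 downwards on the unadjusted p alone, taken at 0.05, where 1582 and 907 of the 14166 tested genes did. Both norepinephrine libraries lay below both saline libraries for 19 of the 45 genes, where 22.9% of all genes did so, and above them for 3, where 34% of all genes did so. The lower genes were mostly of the cap. The 6 ATPases had a median difference of -0.34, with 5 separated from saline, and the 7 tested lid genes one of -0.29, with 6 separated. The alpha ring had a median of -0.05 and the beta ring of -0.10, against 0.04 over all tested genes.

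Among the ATPases, Psmc5 was at 40.4 and 54.7 TPM with norepinephrine and at 61.8 and 67.1 with saline (difference -0.45 ± 0.15, limma adjusted p = 0.207). In the lid, Psmd6 was at 40.0 and 48.7 against 56.0 and 62.8 TPM (-0.42 ± 0.14, adjusted p = 0.192), and Psmd13 at 103 and 108 against 135 and 137 TPM (-0.37 ± 0.11, adjusted p = 0.174). Psmd14, the lid enzyme that cuts ubiquitin chains off, was at 60.6 and 72.5 against 84.1 and 88.2 TPM (-0.37 ± 0.14, adjusted p = 0.239). For each of these genes replicate 1 was the lower norepinephrine library and the groups did not overlap. Replicate 1 lay below replicate 2 for 27 of the 30 constitutive subunits with norepinephrine and for 27 with saline, so much of the spread within groups is shared between genes. Summed over genes, the 16 subunits of the cap were 0.526 and 0.543 times the 14 of the core with norepinephrine, 0.600 and 0.577 times with saline, and 0.561 to 0.602 times across saline, BAFF and LPS.

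Psma1, an alpha subunit, had the largest positive difference of the 45 genes with norepinephrine and did not pass. It was at 159 and 164 TPM with norepinephrine, 117 and 112 with saline, 125 and 119 with BAFF, 134 and 126 with LPS, and 113 and 87.2 TPM in the libraries labelled APRIL. Its norepinephrine libraries were the highest of the 10, and the difference from saline was 0.50 ± 0.13 (limma adjusted p = 0.115). With the libraries labelled APRIL left out of the fit, Psma1 passed as higher (adjusted p = 0.0178) and Psmd13 as lower (adjusted p = 0.0376). Relative to the mean of the other 6 alpha subunits, Psma1 was at 0.937 and 0.864 with norepinephrine and at 0.564 to 0.651 with saline, BAFF and LPS. The PA28 genes lay above saline without passing, Psme1 by 0.39 and Psme2 by 0.23 (adjusted p = 0.264 and 0.445), and Psmb10 was at 19.9 and 25.1 TPM, which overlapped the saline libraries at 23.5 and 20.2 TPM. Adipocyte markers summed to 13340 and 13678 TPM with norepinephrine against 6857 and 7902 TPM with saline. Fabp4 made most of this sum, at 11391 and 11802 against 5452 and 6287 TPM. Of the 5 tested markers 4 had positive differences and 1, Adipoq, a negative one, at 918 and 934 against 925 and 1062 TPM. None of the 5 passed. The macrophage and leukocyte sum was 1235 and 277 TPM, and the part of either marker list in these values was not tested. None of the 9 partners, 8 shuttle factors, 6 regulators or 9 ubiquitin genes passed with norepinephrine.

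**Figure D4:**
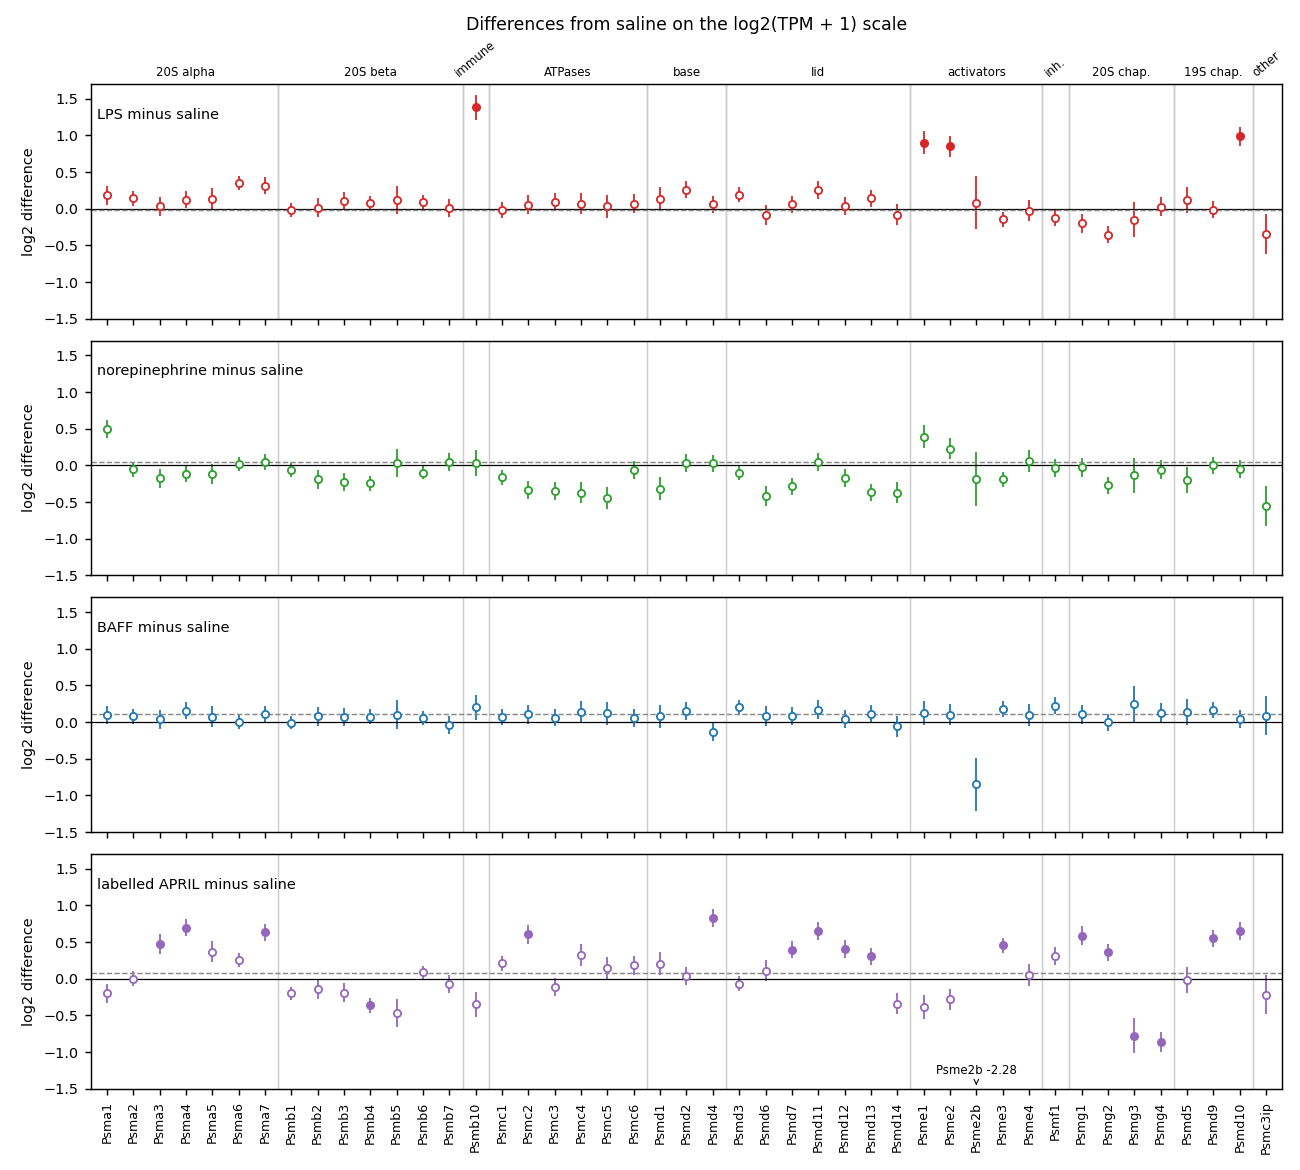
Difference of each treatment from saline on the log2(TPM + 1) scale with its SE, by gene and subcomplex. Filled points passed at an adjusted p of 0.05, and the dashed line is the median of all tested genes. The LPS panel has 4 filled points, norepinephrine and BAFF none, and the libraries labelled APRIL 18.

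BAFF, the ligand under study, gave values near those of saline for most proteasome genes. With BAFF 0 of 45 rose and 0 fell, where 0% of all tested genes rose and 0.0141% fell, and by limma 0 of the 45 were higher or lower at an unadjusted p under 0.05. The median difference of the 45 was 0.09, that of all tested genes 0.11, and both BAFF libraries lay above both saline libraries for 20 of the 45, where 40.4% of all genes did so. Scaling by median ratios moved the median of all genes to 0.000416 and that of the 45 to -0.02. The cutting subunits were at 131 ± 0.938 (Psmb5), 134 ± 7.72 (Psmb6) and 126 ± 4.72 TPM (Psmb7), and Psmb10 at 25.2 ± 2.57 TPM. Intervals of the 30 constitutive subunits lay between -0.41 and 0.55, so changes of up to that size are not excluded for each gene. The largest difference from saline was that of Psme2b, at 3.00 and 0.809 against 4.11 and 3.61 TPM, a level that depends on reads shared with Psme2 (adjusted p = 0.996). None of the listed partners, shuttle factors, regulators or ubiquitin genes passed with BAFF.

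In the libraries labelled APRIL, 14 of the 45 genes rose and 4 fell, where 33.1% of all tested genes rose and 25% fell, so the share that rose is near that of all genes. They include 3 of 7 alpha subunits and 4 of 7 tested lid genes that rose and 1 of 7 beta subunits that fell, and 3 of the 4 lid calls, those of Psmd7, Psmd12 and Psmd13, were lost in 4, 4 and 7 of the 13 alternatives. Under median-ratio scaling the split was 12 higher and 13 lower, and the shares of all genes under that scaling are not given here. The alpha genes Psma3, Psma4 and Psma7, the ATPase Psmc2, the ubiquitin receptor Psmd4, the lid genes Psmd7, Psmd11, Psmd12 and Psmd13, the chaperones Psmg1, Psmg2, Psmd9 and Psmd10 and the activator Psme3 rose. Psmb4, Psmg3, Psmg4 and Psme2b fell. As the libraries stand apart and their Y-linked genes go against the label, what separates them from saline and the treatment cannot be told apart.

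Psmd4 was at 252 and 223 TPM in these libraries and at 142 and 124 TPM with saline, and was no higher than 149 TPM in any of the other 8 (difference 0.83 ± 0.12, limma adjusted p = 0.000715). Psma4 was at 308 and 267 TPM against 164 and 190.1 with saline (0.70 ± 0.11, adjusted p = 0.00133), and Psma7 at 319 and 282 against 189 and 197 TPM (0.63 ± 0.11, adjusted p = 0.00192). These 3 kept their call under each of the 13 alternatives tried. Psmb4 was at 378 and 345 against 456 and 471 TPM (-0.36 ± 0.10, adjusted p = 0.0180) and lost its call in 4 of the 13, at -0.29, -0.38 and -0.34 without APRIL replicate 2, saline replicate 1 and saline replicate 2 and in a fit of the 4 libraries alone. Psmb5 was at 112 and 69.8 against 116 and 129 TPM (adjusted p = 0.0712), a wide gap between replicates. Summed, alpha subunits were 1.55 and 1.57 times the beta subunits in these libraries and 0.995 to 1.11 times in the other 8.

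The 20S assembly chaperones were called in both directions, 2 higher and 2 lower, where 33.1% of all tested genes rose and 25% fell. Psmg1 was at 37.6 and 36.1 TPM against 22.9 and 25.5 with saline, and Psmg2 at 27.3 and 26.4 against 19.2 and 22.3 TPM (differences 0.59 and 0.36, limma adjusted p = 0.00515 and 0.0292). Psmg3 was at 0.655 and 1.38 against 2.43 and 2.38, and Psmg4 at 10.1 and 8.87 against 19.7 and 16.4 TPM (-0.78 and -0.86, adjusted p = 0.0244 and 0.000961). Psmg1 and Psmg2 were thus higher and Psmg3 and Psmg4 lower. With so many genes called, a division by pair is not read from these 4. Psmg2 and Psmg3 each lost the call in 5 of the alternatives, and Psmg3 lay near the filter of 1 TPM. Psmg2 differed by 0.34, 0.39 and 0.26 without APRIL replicate 1, APRIL replicate 2 and saline replicate 1, and Psmg3 by -0.52, -0.77 and -0.79 without APRIL replicate 1, saline replicate 1 and saline replicate 2. Psme2b was listed at 0 and 0.0000142 TPM against 4.11 and 3.61 TPM, so no fold is given. Psmb10, Psme1 and Psme2 lay below saline without passing (-0.35, -0.39 and -0.28), and passed as lower under median-ratio scaling. Psmb8 fell from 35.1 to 17.9 TPM (limma adjusted p = 0.00365), while Irf1 rose from 25.9 to 588 TPM (4.44 ± 0.15, adjusted p = 2.6e-06).

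**Figure D5:**
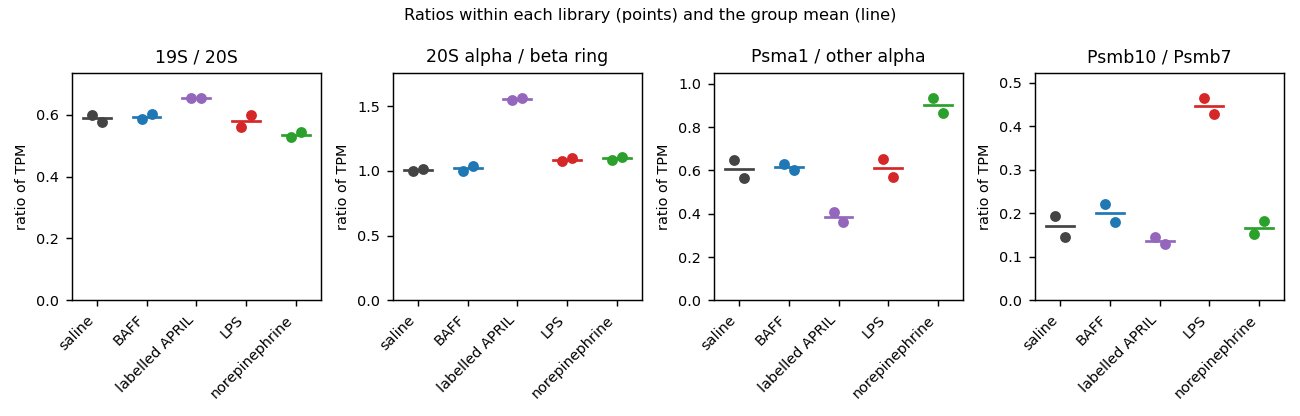
Ratios of TPM within each library, by treatment, 1 point for each library and a line at the group mean: cap to core subunits, alpha to beta ring, Psma1 to the mean of the other alpha subunits, and Psmb10 to Psmb7. The cap to core ratio is lowest with norepinephrine, alpha to beta highest in the libraries labelled APRIL, Psma1 highest with norepinephrine and Psmb10 to Psmb7 highest with LPS.

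Replicate 2 of the libraries labelled APRIL was lower than replicate 1 for 30 of the 30 constitutive subunits, and the split of calls followed the library used. Without replicate 1 it was 9 higher and 10 lower, without replicate 2 it was 17 higher and 3 lower, and without saline replicate 1 it was 8 higher and 2 lower. Without APRIL replicate 1, saline replicate 1 or saline replicate 2, Psmd7 lost its call at 0.32, 0.34 and 0.46, Psmd12 at 0.31, 0.36 and 0.45, and Psmd13 at 0.16, 0.30 and 0.32 (0.31 with all libraries). Psmd13 also lost it without the filter on low values, under median-ratio scaling (0.17), in the 4 libraries alone and with the replicate block, and Psmd7 and Psmd12 in the 4 libraries alone. Psma3 lost its call without APRIL replicate 1 (0.40) or saline replicate 1 (0.39), and Psme3 without saline replicate 1 (0.37). Of the 9 partners 6 rose and 2 fell, against the 33.1% and 25% of all tested genes, shares that also stand behind the lists and markers that follow: Adrm1 rose from 52.9 to 94.8 and Uchl5, a cap deubiquitinase, from 13.8 to 30.6 TPM, while Pomp fell from 126 to 88.0 and Sem1 from 53.3 to 31.1 TPM (adjusted p = 0.000476, 0.000107, 0.0174 and 0.000255). Among shuttle factors Zfand5 rose from 49.1 to 282 and Zfand2a from 14.6 to 77.3 TPM, and of the ubiquitin genes Ubb rose from 352 to 887 TPM. Nfe2l2 rose from 53.7 to 301 TPM (2.47 ± 0.09, adjusted p = 3.45e-06), while Nfe2l1 did not pass (adjusted p = 0.208). Of the adipocyte markers 3 of 5 tested fell, with a sum of 4486 and 2041 TPM, and of the fibroblast markers 2 of 4 fell, with a sum of 1335 and 1656 against 5942 and 5316 TPM with saline. The part of these cell markers in the values above was not tested.

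LPS and norepinephrine were also compared with each other, without saline as the reference. Of the 45 genes 4 were higher and 0 lower with LPS, where 3.62% of all tested genes were higher and 4.19% lower: Psmd10 (1.04 ± 0.12, limma adjusted p = 0.00480), Psmb10 (1.35 ± 0.18, adjusted p = 0.00625), Psmd13 (0.51 ± 0.11, adjusted p = 0.0381) and Psme2 (0.62 ± 0.14, adjusted p = 0.0414). Both LPS libraries lay above both norepinephrine libraries for 30 of the 45, where 22% of all genes did so, and for 25 of the 30 constitutive subunits, among them all 6 ATPases and all 7 tested lid genes. The median of the 30 was 0.25, against -0.04 over all tested genes. Under median-ratio scaling 15 of the 45 passed as higher. With the libraries labelled APRIL left out 7 were called (6 higher, 1 lower), and without the filter on low values 2. How many of all tested genes passed under these alternatives is not given here, so the counts are not set against a share. Psmd13 and Psme2 were the genes that missed the threshold without any of the 4 libraries, at differences of 0.46 to 0.56 and 0.57 to 0.67.

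BAFF and the libraries labelled APRIL differed in 19 of the 45 genes, 8 higher and 11 lower with BAFF, where 28.3% of all tested genes were higher and 29% lower. The largest difference on the lower side was that of Psmd4 (-0.97 ± 0.12, limma adjusted p = 0.000366), and on the higher side, apart from the copy Psme2b, that of Psmg3 (1.03 ± 0.24, adjusted p = 0.00748). Psmg4 followed at 0.98 ± 0.13 (adjusted p = 0.000523). Fitting the 4 libraries alone left 9 genes called, and leaving out BAFF replicate 1 or 2 left 8 or 9. The comparison shares the libraries labelled APRIL with their comparison with saline, so the calls of the 2 are not independent.

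Most constitutive subunits varied together across the other 8 libraries. The correlation of each with the mean of the other constitutive subunits, on the log2(TPM + 1) scale, had a median of 0.866 over the 30, and ran from 0.847 to 0.958 for the 6 ATPases. Psma1 had the lowest value, -0.69, and next came Psmd4 at -0.15 and Psmb7 at 0.04. The highest were those of Psmd1, Psmb3 and Psmd7, at 0.98, 0.97 and 0.97. Psmb10, Psme1, Psme2 and Psmd10 had 0.57, 0.26, 0.37 and 0.51. These are descriptions over 8 libraries that share their treatment groups and any effect of library composition.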

How the data were processed

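RNA-seq values of 10 mouse libraries were used. Per the submitters' processing notes, the authors quantified transcripts with kallisto and name the mm10 build. Version, annotation and any filter are not given in the sources used here. Per the file headers, the deposited values are TPM, and their depth is unknown. Gene symbols, biotypes and positions came from GENCODE mouse M21 (GRCm38), which matched 27475 of the 28987 IDs.

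The 14166 genes that reached 1 TPM in 2 or more libraries entered 1 limma fit (version 3.58.1, R 4.3.3) of log2(TPM + 1). It had 5 group means over the 10 libraries, a mean-variance trend, no block and 5 residual degrees of freedom. P-values were adjusted by Benjamini-Hochberg over all tested genes within each of 6 comparisons. A plan for counts (edgeR) did not apply to TPM. A permutation test of 2 against 2 libraries cannot give less than 0.333, so none was used. Groups of 2 share 1 estimate of the spread, and the 4 comparisons with saline share its 2 libraries. The fit was tested on simulated data. Copies (at least 90% identity over at least 50% of a transcript) were found with BLAST 2.17.0 in GENCODE transcripts. Promoters are from RefSeq. Figures used matplotlib 3.10.9 in Python 3.11.15.

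Named were members past 0.05 against saline, the highest and lowest of each subcomplex, catalytic, activator and assembly genes, and list genes past 0.05 (up to 4 per list). Psma6, Psmc5, Psmd6, Psma1 and Psmd1 were named after their values were seen. Members and lists were chosen with earlier results of these data known. Alternatives were other pseudocounts (0.5, 0.1) and filters, scaling by median ratios, removal of the genes of the mitochondrial genome, 4 libraries alone, libraries labelled APRIL left out, a replicate block and each replicate left out. Summing near-identical copies was added after the data were seen. Some genes of the lists are not reported here.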

Additional observations from a re-analysis of the deposited data

How the results depend on the processing

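No named gene called in a comparison and recomputed changed direction under the alternatives tried. Subcomplex medians, ratios and list genes were not recomputed. Medians over the 45 genes near 0 did turn. The LPS median of 0.07 became -0.01 with mitochondrially encoded genes left out (that of all genes went from -0.01 to -0.09), and the median of BAFF against the libraries labelled APRIL went from -0.03 to 0.06 without APRIL replicate 1. Under median-ratio scaling the BAFF median of 0.09 and the median of 0.11 of the libraries labelled APRIL, both against saline, became -0.02. With 1 library left out, these medians against saline ranged from 0.00450 to 0.13 for LPS, -0.15 to -0.04 for norepinephrine, 0.05 to 0.14 for BAFF and 0.00897 to 0.23 for the libraries labelled APRIL. Medians over all genes turned as well, among them norepinephrine from 0.04 to -0.03 with mitochondrially encoded genes left out, LPS from -0.01 to 0.03 without LPS replicate 1, and the libraries labelled APRIL from 0.08 to -0.03 and LPS against norepinephrine from -0.04 to 0.00843 under median-ratio scaling. The number of the 45 genes past 0.05 moved as follows. Here and above, counts under an alternative stand without the number of all tested genes that passed under it. Such a count may thus move with all genes and not with the 45 alone. LPS against saline gave 4, 5 with the libraries labelled APRIL left out or under median-ratio scaling, 3 without the filter on low values, and 0 to 2 with 1 library left out. Norepinephrine against saline gave 0, and 2 with the libraries labelled APRIL left out. BAFF against saline gave 0 under every alternative. The libraries labelled APRIL against saline gave 18, 25 under median-ratio scaling (12 higher, 13 lower), 12 in the 4 libraries alone, and 10 to 20 with 1 library left out. LPS against norepinephrine gave 4, and 2 without the filter on low values, 15 under median-ratio scaling, 7 with the libraries labelled APRIL left out and 2 with any 1 library left out. BAFF against the libraries labelled APRIL gave 19, and 9 in the 4 libraries alone and 8 to 21 with 1 library left out. In such fits the lone library is assumed to vary like the other groups, and the cause of the other changes was not tested.

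The replicate numbers of the titles are the only link between groups. Deviations of same-numbered libraries correlated at 0.340, 0.357, 0.328, -0.058, 0.479 and -0.108 in the 6 comparisons, in the order above. With a replicate block on these numbers, 4, 0, 0, 17, 4 and 20 genes passed in that order, against 4, 0, 0, 18, 4 and 19 without it. With 2 libraries a group, no depth and a shared spread, changes within a printed interval that spans 0 are not excluded for single genes.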
